A study of Rattus norvegicus with 6 samples.

Results

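Aminoacyl-tRNA synthetases join each amino acid to its transfer RNA and so supply the ribosome with charged tRNAs. The cytosol and the mitochondrial matrix mostly use separate enzymes, which are encoded by different nuclear genes, so a mitochondrial enzyme is made in the cytosol and imported. In mammals several cytosolic synthetases sit together in a multi-synthetase complex, and many genes of cytosolic synthetases are known targets of the transcription factor ATF4, which acts when amino acids run short or proteins misfold. Astrocytes, the glial cells that take up glutamate around synapses, depend on both systems for their protein synthesis. The genes described here are the 36 of the 22608 gene symbols in the deposited table that a fixed list of synthetase names picks out, without use of any measured value. The list holds 20 cytosolic and 16 mitochondrial genes, all of them were found under their older symbols (Aars for Aars1), and the cytosolic and mitochondrial genes were treated apart.

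The study compared primary astrocytes from rat (Rattus norvegicus) brain under control conditions with the same kind of culture given β-hydroxybutyrate (BHB), the main ketone body of fasting. There were 3 poly(A) RNA libraries per group, and the column headers of the table give the dose as 2 mM. The sources used here give no strain, animal age, time in culture or duration of treatment, and no label ties a library to its own culture or animal. The p-values therefore reflect only how far these libraries vary, which may be technical variation. Levels are FPKM, fragments per kilobase of transcript and scaled to the mapped fragments of the library, which allows genes to be compared per length but carries no read count, so the depth behind a value is unknown. Among values under 0.1 FPKM the most frequent ratio to control 1, a weak guide to relative depth, lay between 0.851 and 1.01. In each library it rested on 5 to 8 genes of the 276 to 315 compared. Of the 10 astrocyte markers, Slc1a2 was lowest at 5.94 FPKM and Fabp7 highest at 2311 FPKM over all libraries, and the glutamate transporter Slc1a3 was the marker that passed the test, rising from 202.7 FPKM in controls to 455.2 FPKM under BHB. Endothelial markers were at most 0.238 FPKM, and microglial markers summed to 20.6 to 22.3 FPKM. The 7 fibroblast and mural markers ran from 0.0054 FPKM (Dcn) to 3067 FPKM (Tagln, a smooth muscle and pericyte gene), with a median of 99.6 FPKM. The highest neuronal marker was Tubb3 at 18.35 FPKM and the highest oligodendrocyte marker Olig1 at 25.3 FPKM. The ependymal marker Foxj1 stood at 32.5 FPKM. In such bulk RNA fewer cells of a type and less RNA per cell cannot be told apart.

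Short promoter stretches are shown first because the cytosolic and mitochondrial genes differed in them. The element through which ATF4 acts together with a C/EBP protein, the amino acid response element, has the core TGATGNAA, where N is any base. Both strands were searched for this core in the windows of 250 bases before to 50 bases after the gene start that RefSeq gives on the later rat assembly GRCr8, which is not the build of the expression table (rn6). Windows were found for 33 of the 36 genes, and Gars and Rars were among those without an entry. Of 17 cytosolic genes with a window, 7 held the core (41.2%), and of 16 mitochondrial genes 0 did. Over all 27457 genes with a window the share was 4.16%. The 7 were Aars, Cars, Iars, Mars, Nars, Tars and Yars. All 7 belong to a list of 12 synthetase genes taken from general knowledge as ATF4 targets, of which 11 had a window, while none of the 6 other cytosolic genes with a window held the core. A match is a run of letters and no evidence that a factor binds there.

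The following stretches of at most 30 bases are on the strand of the gene, 5′ to 3′. Capitals mark the core, which is printed as its reverse complement where it lies on the opposite strand (all but Nars and Yars).
Aars (chr19:55908480-55908509, plus strand, core 9 bases after the start): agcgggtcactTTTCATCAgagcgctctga
Cars (chr1:208225334-208225363, minus strand, core 17 bases after the start): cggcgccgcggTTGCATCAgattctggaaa
Iars (chr17:15193658-15193687, minus strand, core 24 bases before the start): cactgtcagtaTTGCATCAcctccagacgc
Mars (chr7:65023752-65023781, minus strand, core 17 bases before the start): gcccgttccggTTGCATCAgcgtgggctcc
Nars (chr18:60275778-60275807, minus strand, core 14 bases before the start): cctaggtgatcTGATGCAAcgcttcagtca
Tars (chr2:62114811-62114840, minus strand, core 27 bases before the start): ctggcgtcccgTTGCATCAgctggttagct
Yars (chr5:146820190-146820212, plus strand, core 38 bases after the start): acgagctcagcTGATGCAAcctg
The core nearest to the start is printed for each gene. In all of these but Aars the variable base gives the same 8 letters, read on one strand or the other. Hars and Hars2 have neither core nor separate upstream regions: on GRCr8 their starts lie 144 bases apart on opposite strands, and their windows share 243 bases.

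In control and BHB-treated astrocytes alike, cytosolic synthetase genes were expressed well above mitochondrial ones. The mean over all libraries ran from 9.85 FPKM (Iars, the isoleucine enzyme) to 56.9 FPKM (Sars, the serine enzyme), with a median over the 20 genes of 28.6 FPKM. Mitochondrial genes ran from 1.21 FPKM (Mars2, the methionine enzyme) to 19.5 FPKM (Iars2, the isoleucine enzyme), with a median over the 16 genes of 3.78 FPKM. Summed over the genes of a set, cytosolic synthetases had a mean of 672.2 FPKM in the control libraries (664.4 to 687.3) and 678.6 FPKM in the BHB libraries (672.8 to 688.5). Mitochondrial synthetases summed to 92.4 ± 0.842 FPKM in controls against 91.2 ± 2.98 FPKM under BHB (SD, n = 3 each). The ratio of the sums within a library was 7.28 ± 0.0818 in controls and 7.45 ± 0.324 with BHB (SD, n = 3 each), and the ranges of the groups overlapped. The sums hold 20 and 16 genes, and the cytosolic sum includes Kars and Gars, whose products serve both compartments.

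**Figure D1:**
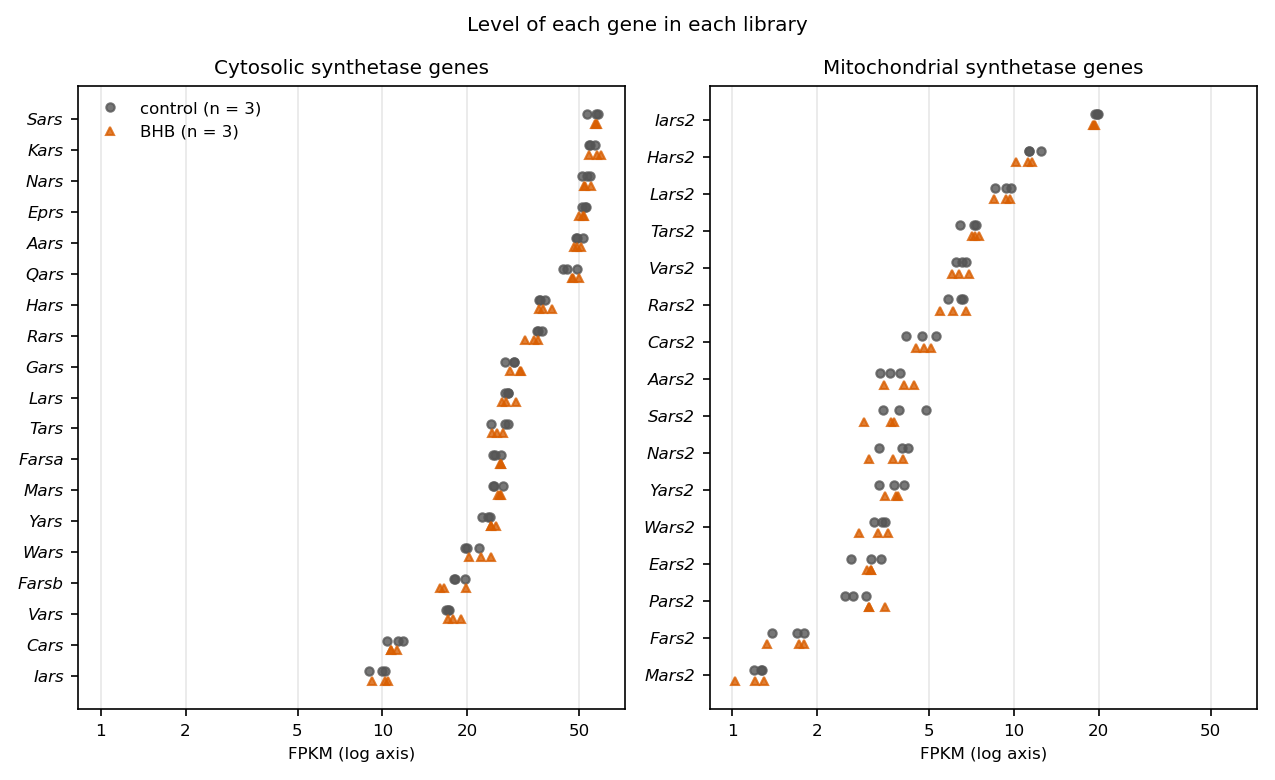
FPKM of each cytosolic (left) and mitochondrial (right) synthetase gene in each of the 3 control libraries (circles) and 3 BHB libraries (triangles), on a log axis, ordered by the mean over libraries. Cytosolic genes lie between about 9 and 60 FPKM and mitochondrial genes between about 1 and 20 FPKM, and circles and triangles overlap for all genes but Yars and Pars2.

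For 13 amino acids a single cytosolic gene of the list could be set against a single mitochondrial gene of the same letter. Tarsl2, a relative of Tars outside the list, had 5.515 FPKM over all libraries and is not part of these pairs. In 12 of these pairs the cytosolic gene was the higher in all 6 libraries, and the median of the control ratios over the 13 pairs was 5.74. The highest ratio in controls was that of Mars to Mars2, at 20.6 ± 1.63, and the lowest above 1 that of Cars to Cars2, the cysteine enzymes, at 2.39 ± 0.134 (SD, n = 3 each). The exception was isoleucine. Iars was below Iars2 in all 6 libraries, with a ratio of 0.495 ± 0.0351 in controls and 0.517 ± 0.0403 with BHB (SD, n = 3 each). Iars had 8.98, 10.2 and 9.99 FPKM in controls 1 to 3 and 10.5, 10.2 and 9.18 FPKM in BHB 1 to 3. Iars2 had 19.7, 19.8 and 19.4 FPKM in controls and 19.3, 19.1 and 19.5 FPKM with BHB, the smallest spread of all 36 genes, with a coefficient of variation within groups of 1.18%. The ratio compares levels per length, so it depends on the transcript models behind each gene, whose part in it was not tested.

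**Figure D2:**
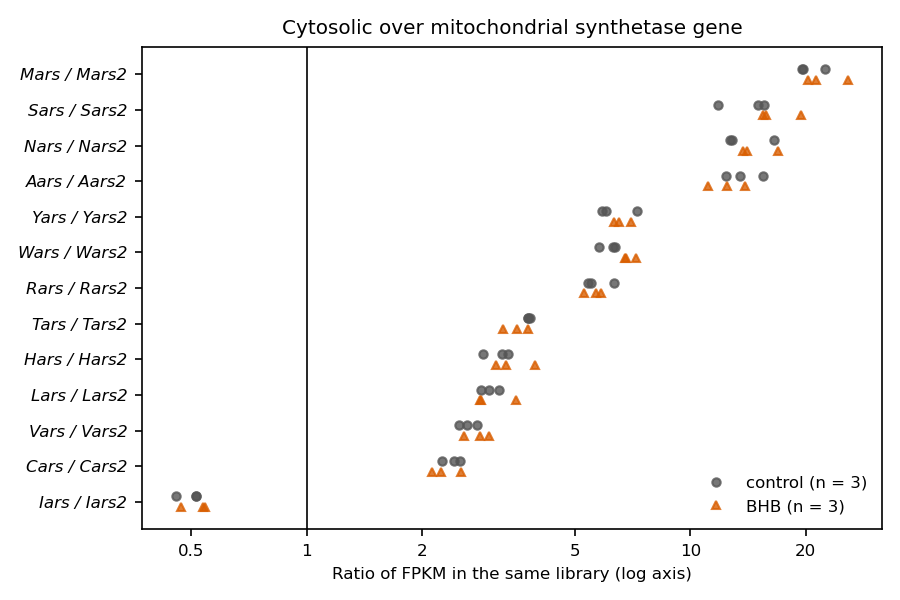
Ratio of the FPKM of the cytosolic to the mitochondrial gene for 13 amino acids, in each control (circles) and BHB (triangles) library, on a log axis with a line at equal levels. Iars over Iars2 is the pair to the left of the line, near 0.5, and the other 12 pairs lie to the right of it in every library.

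No synthetase gene passed the test for a difference between BHB and control. The test was limma on log2(FPKM + 1), on the 12373 genes that reached 1 FPKM in 3 or more libraries, with Benjamini-Hochberg adjustment over all of them. All 36 synthetase genes reached that minimum. With an adjusted p under 0.05, 0 of 20 cytosolic and 0 of 16 mitochondrial genes were called, against 7 genes or 0.0566% of all genes tested. With an unadjusted limma p under 0.05 the numbers were 0 of 20 and 0 of 16, against 5.59% of all genes tested. The groups did not overlap in 1 cytosolic gene (Yars) and 1 mitochondrial gene (Pars2), or 2 of 36, against 10.9% of all genes tested. By none of these 3 measures was the share of synthetase genes above that of all genes.

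Differences were small in both sets. Log2 fold changes, BHB over control on the log2(FPKM + 1) scale, ran from -0.09 to 0.11 over the cytosolic genes, of which 13 lay above 0 and 7 below, with a median of 0.0272. Over the mitochondrial genes they ran from -0.19 to 0.17, of which 6 lay above 0 and 10 below, with a median of -0.0095. Over all genes tested the median was 0.0029, and 51.5% lay above 0. Between libraries of a group the set's median had an SD of 0.0311 (cytosolic) and 0.0420 (mitochondrial) on the log2 scale. That SD is of single libraries, while the medians above compare means of 3, so their sizes cannot be set against each other directly. With libraries scaled to equal sums 11 of 20 and 5 of 16 genes lay above 0. Without BHB 1 the numbers were 10 of 20 and 11 of 16, and without control 2 they were 14 of 20 and 8 of 16. In these cases the mitochondrial median was 0.0272 and 0.0098, above 0, and without BHB 1 the cytosolic median was 0.0019. On which side of 0 most mitochondrial genes fall thus depends on single libraries.

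The precision allows a statement on the size of a difference that these libraries could hold. The 95% confidence interval of each of the 20 cytosolic genes lay within 0.32 of no change in either direction on the log2(FPKM + 1) scale, the widest bounds being -0.28 (Farsb) and 0.28 (Wars). The same held for 14 of the 16 mitochondrial genes, and the exceptions were Pars2 and Sars2. For these low genes the scale understates a change. With a pseudocount of 0.1 in place of 1 the interval stayed within these bounds for 20 cytosolic and 10 mitochondrial genes. The intervals are per gene and not corrected for their number.

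**Figure D3:**
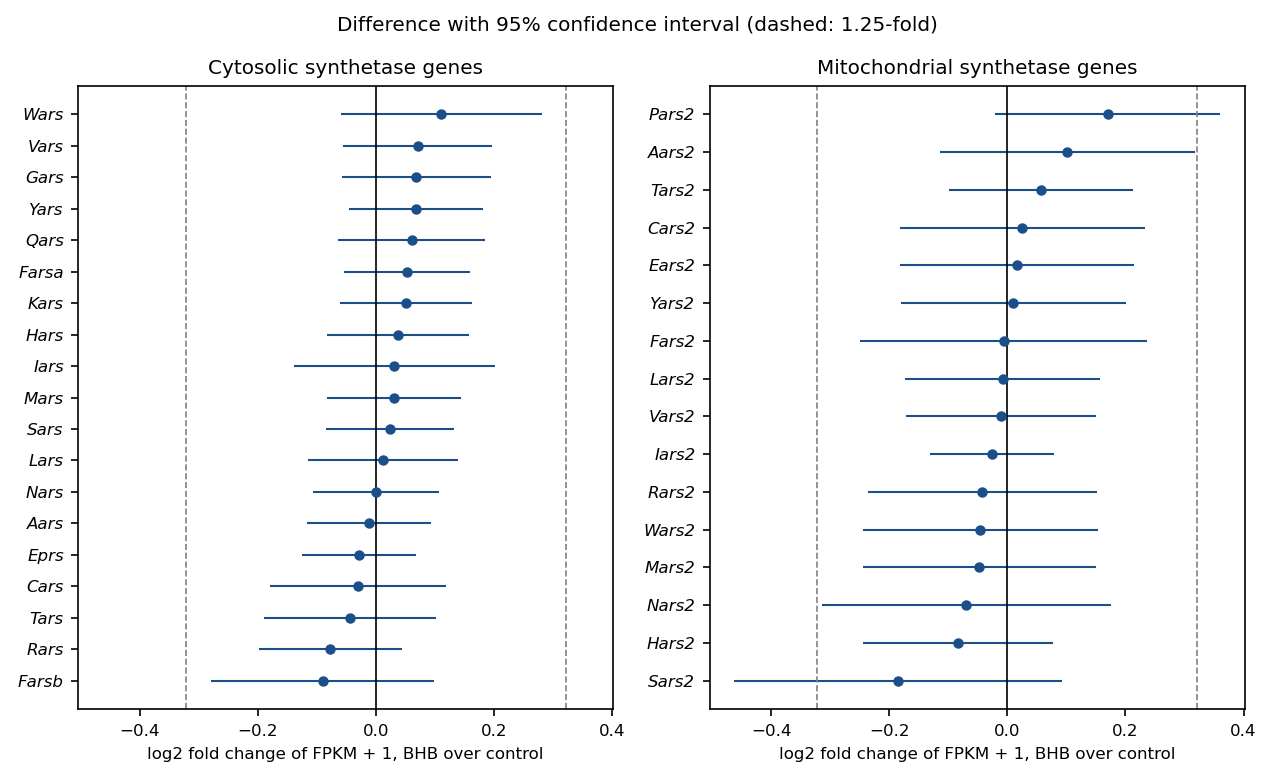
Log2 fold change (BHB over control, log2(FPKM + 1) scale) with its 95% confidence interval from limma for each cytosolic (left) and mitochondrial (right) synthetase gene, with n = 3 libraries per group. Solid lines mark no change and dashed lines a change of 0.32 in either direction. All intervals drawn include 0, and only those of Pars2 and Sars2 cross a dashed line.

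The multi-synthetase complex holds, among others, the enzymes for glutamate and proline (Eprs, both activities in one chain), isoleucine (Iars), leucine (Lars), methionine (Mars), glutamine (Qars), arginine (Rars) and lysine (Kars). Of its 8 synthetase genes 5 lay above 0 and 3 below, with a median log2 fold change of 0.0217. Kars, whose product serves both compartments, had 54.9, 56.9 and 54.1 FPKM in controls and 54.4, 58.0 and 59.6 FPKM with BHB. Qars had 43.8, 49.3 and 45.5 FPKM in controls and 47.6, 47.1 and 49.8 FPKM with BHB. In both genes BHB 3 was the highest library, but the groups overlapped (log2 fold changes of 0.05 and 0.06, limma adjusted p = 0.917 and 0.910). Rars had a log2 fold change of -0.08 (SE 0.0528, limma adjusted p = 0.895), with 35.8, 36.9 and 35.5 FPKM in controls and 35.8, 32.1 and 34.6 FPKM with BHB. BHB 2 was low there, and BHB 1 was level with the controls. Without BHB 2 the log2 fold change of Rars was -0.0336. That of Kars was 0.0882 without BHB 1 and 0.0236 without BHB 3, and that of Qars 0.107 without control 2, 0.0239 without control 1 and 0.0367 without BHB 3.

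Farsb, the beta subunit of the cytosolic phenylalanine enzyme, had 17.9, 18.1 and 19.6 FPKM in controls and 19.8, 16.0 and 16.5 FPKM with BHB, a coefficient of variation within groups of 8.82%. Control 3 and BHB 1 were alike and high, and the other BHB libraries were the lowest. Its partner subunit gene Farsa did not share this order, with 25.1, 26.3 and 24.7 FPKM in controls and 26.3, 26.4 and 26.3 FPKM with BHB. The products of Farsa and Farsb form one enzyme of both subunits, and Farsa was the higher of the genes in each library. Eprs, the largest chain of the complex, varied least among the cytosolic genes, with a coefficient of variation of 2.02%.

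The complex is held together by scaffold proteins that charge no tRNA, encoded by Aimp1, Aimp2 and Eef1e1. Eef1e1 had 23.6, 22.6 and 21.5 FPKM in controls and 25.6, 24.6 and 25.2 FPKM with BHB, so that all BHB libraries lay above all controls. Its log2 fold change was 0.15 (SE 0.0514, 95% interval 0.03 to 0.27). It had the single unadjusted p under 0.05 among the scaffold genes and did not pass (adjusted p = 0.881 in limma). Aimp1 had 24.5, 22.8 and 22.0 FPKM in controls and 25.2, 25.2 and 24.9 FPKM with BHB, again without overlap, and the log2 difference was 0.12 (95% interval -0.0046 to 0.24, adjusted p = 0.881 in limma). Aimp2 stood at 21.0 ± 1.66 and 20.9 ± 2.15 FPKM (SD, n = 3 each) and overlapped throughout. Thus the groups did not overlap in 2 of the 3 scaffold genes and in 0 of the 8 synthetase genes of the complex, against 10.9% of all genes tested, and counts over so few genes say little. The difference between scaffold and synthetase genes was not tested.

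Outside the complex, 8 of 12 cytosolic genes lay above 0 and 4 below, with a median log2 fold change of 0.0306. Wars, the tryptophan enzyme, had the smallest p of the cytosolic set and its highest log2 fold change, 0.11 (SE 0.0741, 95% interval -0.06 to 0.28, adjusted p = 0.895 in limma). It had 19.6, 22.1 and 19.98 FPKM in controls and 20.4, 24.2 and 22.3 FPKM with BHB. BHB 2 was the highest library, and BHB 1 lay below control 2. The value rests in part on single libraries: it was 0.0522 without BHB 2 and 0.172 without BHB 1, and Wars was not the highest of the set without BHB 2 (Qars, 0.0758) or without control 1 (Yars, 0.0864). Wars is known as an interferon-inducible gene. Of 17 interferon-stimulated genes 12 were highest in BHB 3, and 13 of the 17 reached the expression minimum. The share of all genes highest in BHB 3 was not computed. The list summed to 126.5 FPKM in BHB 3 against 96.2 to 104 FPKM in the other libraries. Wars was highest in BHB 2, and whether interferon bears on its value was not tested.

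Yars, the tyrosine enzyme, was the cytosolic gene whose groups did not overlap. It had 24.1, 23.8 and 22.5 FPKM in controls and 24.4, 25.3 and 24.2 FPKM with BHB. The gap between the groups, from the highest control to the lowest BHB library, was narrower than the range of either group. The log2 fold change was 0.07 (SE 0.0494, limma adjusted p = 0.898), and a two-sided exact permutation test gave p = 0.1, the smallest that 3 against 3 allows. Vars, the valine enzyme, had 17.3, 17.1 and 16.8 FPKM in controls and 17.1, 19.0 and 17.8 FPKM with BHB, and the log2 difference was 0.07 (adjusted p = 0.898 in limma). BHB 1 fell among the controls there. Without BHB 2 the log2 difference of Vars was 0.0312, and without control 3 that of Yars was 0.0393.

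Sars was the most abundant synthetase gene, with 57.4, 58.6 and 53.4 FPKM in controls and 57.5, 57.9 and 56.8 FPKM with BHB. Its log2 fold change of 0.02 (95% interval -0.09 to 0.13) was smaller than the spread among controls. Aars (alanine), Nars (asparagine), Hars (histidine), Gars (glycine, an enzyme of both compartments), Tars (threonine) and Cars (cysteine) had log2 fold changes of -0.01, 0.00068, 0.04, 0.07, -0.04 and -0.03, with limma adjusted p between 0.902 and 0.998. The 7 genes with the response element core had a median log2 fold change of 0.00068, and the 10 cytosolic genes with a window and no core had 0.0445. Of class I enzymes, which share one fold of the catalytic domain, 7 of 9 lay above 0, and of class II enzymes, which share another, 6 of 10 did (Eprs holds both).

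Among mitochondrial genes Pars2, the proline enzyme, had the smallest p and the highest log2 fold change. It had 2.67, 2.99 and 2.52 FPKM in controls and 3.05, 3.05 and 3.47 FPKM with BHB. All BHB libraries lay above all controls, but control 2 lay close below the lowest of them. The log2 fold change was 0.17 (SE 0.0833, 95% interval -0.02 to 0.36) and did not pass (adjusted p = 0.881 in limma). The exact two-sided permutation p was 0.1. Without control 3 the log2 fold change was 0.129 and that of Aars2 was higher, at 0.146. The ratio of mean FPKM for Pars2, BHB over control, was 1.17, and the log2 difference was 0.22 when 0.1 was added in place of 1.

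Sars2, the mitochondrial serine enzyme, had the lowest log2 fold change of all 36 genes and the widest spread, with a coefficient of variation within groups of 16.2%. It had 4.87, 3.89 and 3.43 FPKM in controls and 3.65, 3.74 and 2.92 FPKM with BHB. Control 1 stood highest and BHB 3 lowest, and the other 4 libraries overlapped. The log2 fold change was -0.19 (SE 0.121, 95% interval -0.46 to 0.09, limma adjusted p = 0.893). It was -0.0737 without control 1 and -0.0992 without BHB 3, and in both cases that of Hars2 was lower, at -0.106 and -0.121. The cytosolic serine gene Sars showed no such order, with control 3 its lowest library.

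Hars2, the mitochondrial histidine enzyme, had 11.3, 11.3 and 12.5 FPKM in controls and 10.2, 11.2 and 11.6 FPKM with BHB, and the log2 difference was -0.08 (adjusted p = 0.910 in limma). Hars, whose start lies beside that of Hars2 on the opposite strand, had 37.9, 36.4 and 36.0 FPKM in controls and 40.0, 37.1 and 36.2 FPKM with BHB. In this neighbouring pair BHB 1 was the highest library for Hars and the lowest for Hars2, and control 3 the highest for Hars2 and the lowest for Hars. Their order over the 6 libraries was thus not shared, and the ratio of Hars to Hars2 ran from 2.88 to 3.94. Aars2, the mitochondrial alanine enzyme, had 3.35, 3.64 and 3.93 FPKM in controls and 3.46, 4.08 and 4.43 FPKM with BHB, and the log2 difference was 0.10 (adjusted p = 0.911 in limma). BHB 1 lay below 2 of the controls there. Aars2 was at 0.181 without BHB 1, 0.0378 without BHB 3 and 0.0556 without control 1, and Hars2 at -0.0321 without BHB 1 and -0.0380 without control 3.

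Mars2 was the least abundant gene, with 1.28, 1.20 and 1.26 FPKM in controls and 1.02, 1.21 and 1.30 FPKM with BHB. Its BHB libraries spanned the whole range of the controls. The remaining mitochondrial genes, for cysteine (Cars2), glutamate (Ears2), phenylalanine (Fars2), isoleucine (Iars2), leucine (Lars2), asparagine (Nars2), arginine (Rars2), threonine (Tars2), valine (Vars2), tryptophan (Wars2) and tyrosine (Yars2), had log2 fold changes between -0.07 (Nars2) and 0.06 (Tars2), with limma adjusted p between 0.921 and 0.996.

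The libraries differed in which genes they held highest, and the pattern was not the same in both sets. Of the cytosolic genes 6 were highest in BHB 1, 5 in control 2 and 0 in control 3, and 9 were lowest in control 3. Of the mitochondrial genes 5 were highest in control 2, 5 in BHB 3 and 1 in BHB 1, and 6 were lowest in BHB 1. In BHB 1 the median deviation from the gene mean on the log2 scale was thus 0.0257 for cytosolic and -0.0683 for mitochondrial genes. It was 0.0080 for all genes tested. In control 3 it was -0.0487 for cytosolic genes and -0.0056 for all genes tested. The highest and lowest library was not counted over all genes, so the counts have no background to be read against. Mitochondrial genes also varied more between libraries of a group, with a median coefficient of variation of 8.61% against 4.18% for cytosolic genes and 6.80% for all genes tested. Levels ran in the reverse order, with medians of 3.78, 28.6 and 10.6 FPKM. The part of level in this spread was not tested, so the spread cannot be read as a trait of the mitochondrial set.

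**Figure D4:**
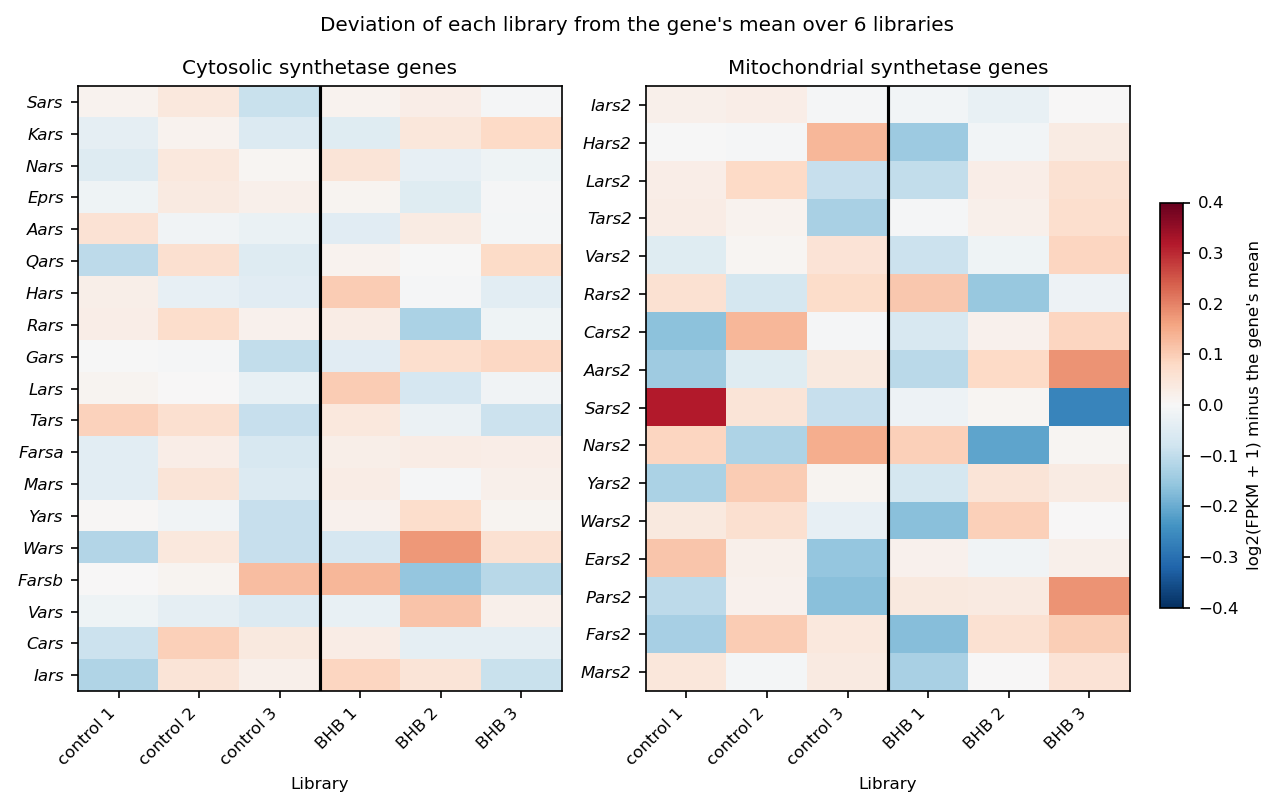
Deviation of log2(FPKM + 1) in each library from the gene's mean over the 6 libraries, for cytosolic (left) and mitochondrial (right) synthetase genes ordered by level. Red is above and blue below the mean, and the vertical line divides control from BHB libraries. Farsb is red in control 3 and BHB 1, most mitochondrial genes are blue in BHB 1, and Sars2 shows the deepest colours, in control 1 and BHB 3.

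Other genes that act around tRNA charging were examined as lists. Genes of tRNA maturation and export had 7 of 14 above 0 and a median log2 fold change of -0.0137. Of the 14 genes 1 had an unadjusted p under 0.05, where 5.59% of all genes tested did. It was Rpp38, a ribonuclease P subunit that trims tRNA precursors. Its level was 3.99 ± 0.542 FPKM in controls against 5.24 ± 0.925 FPKM under BHB (SD, n = 3 each), the groups overlapped, and the difference of 0.32 on the log2 scale did not pass (adjusted p = 0.881 in limma). The 4 mitochondrial partners of charging, Gatb, Gatc and Qrsl1, which make glutaminyl-tRNA from misacylated tRNA, and Mtfmt, which formylates the initiator methionyl-tRNA, had 2 above and 2 below 0. The 4 relatives with editing or related roles, Tarsl2, Aarsd1, Prorsd1 and Dtd1, all lay above 0, with a median of 0.0564 and no p under 0.05.

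Elongation factors serve the ribosome as it adds amino acids, and some of them carry charged tRNA to it. The 5 cytosolic ones lay above 0 by 0.02 to 0.06, with no p under 0.05, and Eef1a1, the carrier itself, had a level of 1870 FPKM over all libraries, far above any synthetase gene. Of the 3 mitochondrial ones Tsfm, the exchange factor of the mitochondrial carrier, had 6.38, 6.87 and 6.80 FPKM in controls and 7.93, 8.46 and 10.5 FPKM with BHB. All BHB libraries lay above all controls, and BHB 3 was the highest. The log2 fold change was 0.37 (SE 0.0974, 95% interval 0.14 to 0.59), the largest among the genes of tRNA charging and elongation examined. It did not pass (adjusted p = 0.881 in limma). With 1 library left out it ran from 0.259 (without BHB 3) to 0.443 (without BHB 1).

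The amino acid response that is known to act on synthetase genes through ATF4 was described by 26 genes, of which 23 were tested. Of these 18 lay above 0 and 5 below, with a median log2 fold change of 0.0751, and none passed. Atf4 itself had 121.9, 140.0 and 127.8 FPKM in controls and 140.9, 137.5 and 143.1 FPKM with BHB, and the log2 difference was 0.11 (SE 0.0550, adjusted p = 0.881 in limma). Control 2 lay among the BHB libraries, and the log2 difference was 0.0700 without control 1. Asns, asparagine synthetase and a standard ATF4 target, had 11.5, 13.2 and 12.3 FPKM in controls and 14.5, 12.4 and 13.7 FPKM with BHB, and the log2 difference was 0.12 (adjusted p = 0.890 in limma). It was 0.0760 without BHB 1 and 0.0786 without control 1. Of the 23 genes 1 had an unadjusted p under 0.05, where 5.59% of all genes tested did. It was Cebpb, a partner of ATF4. Its level was 10.8 ± 0.545 FPKM in controls against 12.9 ± 1.37 FPKM under BHB (SD, n = 3 each), without overlap (log2 difference 0.23, adjusted p = 0.881 in limma). With 1 library left out the log2 difference of Cebpb ran from 0.159 (without BHB 3) to 0.298 (without BHB 2). The stress markers Trib3 and Chac1 did not reach the expression minimum. The 12 synthetase genes of the ATF4 list had a median of 0.0180, with 8 above 0, and the other 8 cytosolic genes a median of 0.0445, with 5 above 0.

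**Figure D5:**
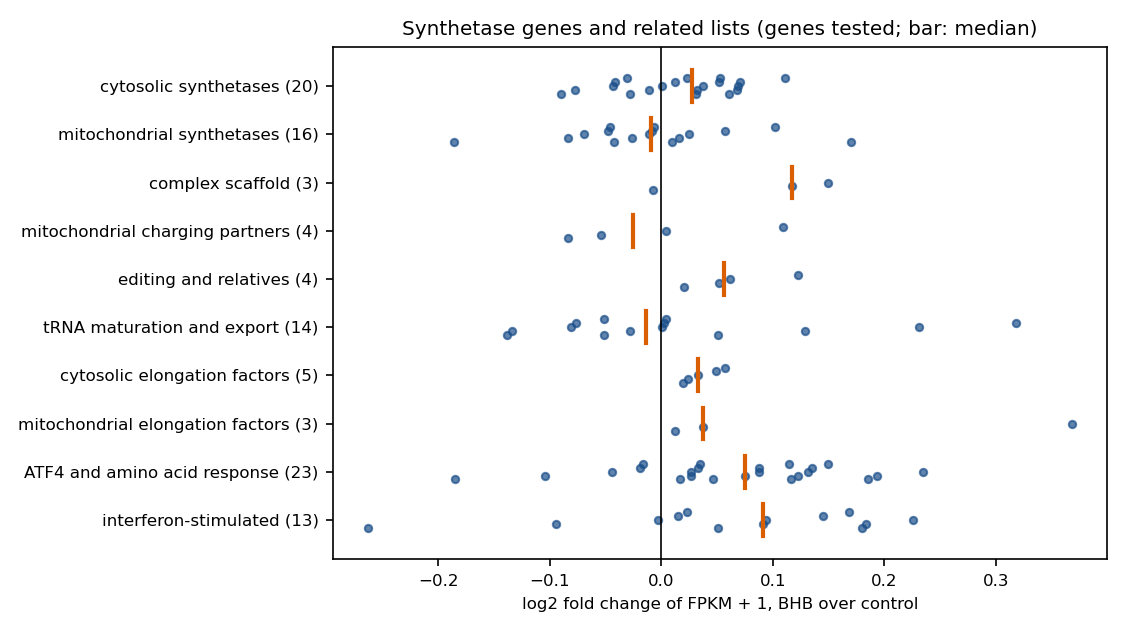
Log2 fold change (BHB over control, log2(FPKM + 1) scale) of each tested gene of the synthetase sets and of the related lists, with the number of genes in brackets and the median as a vertical bar. The synthetase medians lie at 0.0272 and -0.0095, and the median of the ATF4 and amino acid response list lies at 0.0751. The point farthest to the right is Tsfm among the mitochondrial elongation factors.

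Gene models may set a limit on some of these values. On GRCr8, 6 of the 36 genes overlap another protein-coding gene: Aars, Mars, Yars, Mars2, Rars2 and Sars2. The library kit does not mark strand, so reads from a stretch that overlapping genes share cannot be assigned by strand. Overlap was judged on whole gene spans, and whether any exon is shared was not examined. Of the 36 genes 10 had values of at most 6 decimals, 5 in each set, and among these the median log2 fold change was 0.0525 for the cytosolic and -0.0262 for the mitochondrial genes, again with 0 called.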

How the data were processed

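Rat primary astrocyte RNA was sequenced from 3 control and 3 BHB-treated libraries, prepared from poly(A) RNA with a TruSeq kit that does not mark strand, per the labels' protocols. The authors deposited one table of FPKM values, with a column per library, and the table names genes by symbol. The submitters' processing notes name bcl2fastq 2.0, HISAT2, StringTie and DESeq2 as tools and rn6 as genome build, without roles. No counts were used, since FPKM is not a count, so precision rests on the spread between libraries. Columns were matched to samples by title.

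Values were transformed as log2(FPKM + 1), and genes reaching 1 FPKM in 3 or more libraries were fitted with limma 3.58.1 in R 4.3.3 (eBayes with an intensity trend, two-sided, Benjamini-Hochberg over all 12373 genes, threshold 0.05). The fit was tested on simulated data. Ratios and SDs are of FPKM. The members, lists and tests were chosen with earlier results of these data known. Values of each library are given for the 4 genes per set with the smallest p, the most and least abundant, the most variable, and others chosen after their values were seen. Alternatives were the pseudocount, the filter, scaling, the trend, weights, a replicate block and leaving out each library. Genes with at most 6 decimals were an alternative chosen after seeing the data. Promoter windows are from RefSeq (GRCr8), matched by symbol, and no protein sequences were used. Some genes and sequences are not reported by name here and are not drawn singly, but the counts and medians of the sets hold all 36 genes.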

Additional observations from a re-analysis of the deposited data

How the results depend on the processing

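None of the 36 synthetase genes passed in any of the 15 alternatives run, and the lowest adjusted p was 0.685 (without BHB 1). An unadjusted p under 0.05 was seen in 4 of 504 values: Pars2 without the intensity trend or without control 2, and Farsb and Wars without BHB 1. Of all genes tested, 7 passed in the main setting, 4 without the intensity trend, 2 with the replicate block and 2 among genes with at most 6 decimals, where fewer were tested. The numbers gave no pairing of control with BHB libraries: same-numbered libraries had correlations of deviations of -0.0899, 0.164 and -0.151, and not every library correlated best with its own number. With the block 0 synthetase genes passed. The cytosolic median lay between 0.0019 (without BHB 1) and 0.0525 (genes with at most 6 decimals) in the alternatives. The mitochondrial median lay between -0.0418 (without BHB 3) and 0.0272 (without BHB 1), so its sign was not stable. Each move was smaller than the SD of the set's median in single libraries, which is no test. Leaving out 1 library shifts a group mean by only part of that library's deviation, so this outcome decides nothing. The setting of at most 6 decimals changes the genes and not the libraries, so the SD does not apply to it. The sign turned in 38 of 504 synthetase values, over 18 genes whose main log2 fold change was at most 0.0695 in size, and the cause was not tested. Scaling to equal sums gave -0.00395 (Lars), -0.016 (Nars) and -0.00352 (Yars2). Array weights gave -0.00551 (Lars), -0.00608 (Nars), -0.00212 (Ears2), 0.0293 (Fars2), 0.0109 (Vars2) and 0.0104 (Aimp2). Leaving out a library gave -0.0313 to 0.0149 for Aars, -0.0818 to 0.00927 for Cars, -0.00388 to 0.0681 for Hars, -0.0203 to 0.0846 for Iars, -0.0351 to 0.0492 for Lars, -0.025 to 0.0216 for Nars and -0.0152 to 0.0499 for Sars. For mitochondrial genes it gave -0.0504 to 0.0974 for Cars2, -0.0575 to 0.0761 for Ears2, -0.0752 to 0.0768 for Fars2, -0.056 to 0.0397 for Lars2, -0.0881 to 0.00401 for Mars2, -0.149 to 0.0179 for Nars2, -0.107 to 0.0232 for Rars2, -0.0563 to 0.0288 for Vars2, -0.105 to 0.0257 for Wars2 and -0.0504 to 0.0629 for Yars2, and for Aimp2 -0.071 to 0.0706. The depth behind single values is unknown.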
